A study of Mus musculus with 6 samples.

Results

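The cathepsins are proteases, most of them lysosomal, and 10 of their genes were followed here out of the 54752 genes of the count table. They were picked by symbol as a family list of 8 papain-type cysteine proteases (Ctsb, Ctsf, Ctsh, Ctsk, Ctsl, Ctss, Ctsw and Ctsz), the aspartic protease Ctsd and the serine carboxypeptidase Ctsa. The list was drawn up with the differences from vehicle already known, among them those of Ctsf and Ctsw, so the differences between treated and vehicle libraries are given for the 10 genes as a description, without p-values. All 10 had counts in at least 1 library, and 8 passed the filter on low counts, which asked for 10 CPM (counts relative to library size) in more than 3 of the 6 libraries. Ctsf and Ctsw passed it through the 4 treated libraries alone, so passing already required a difference from vehicle in these 2 genes. Ctsh and Ctss did not pass.

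The measurements were RNA-seq counts from the mouse embryonic fibroblast line NIH/3T3 after removal of rRNA. There were 3 groups of 2 libraries, each treated for 72 h. The vehicle group received PBS, the DMSO group DMSO and 1 ng/ml of TGF-β1, and the BI6727 group the same dose of TGF-β1 and 5 μM of BI6727, an inhibitor of the mitotic kinase PLK1. Because vehicle was PBS, TGF-β1 and DMSO cannot be told apart when the DMSO group is set against vehicle, and no group received BI6727 without TGF-β1. TGF-β1 is the standard stimulus that turns fibroblasts into contractile, matrix-producing myofibroblasts.

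Cathepsins are made as inactive proenzymes, tagged with mannose 6-phosphate, carried to the lysosome by sorting receptors and activated there at low pH. In fibroblasts they degrade collagen and other proteins taken up by endocytosis, and some are also secreted into the matrix. Cystatins and some serpins inhibit the cysteine cathepsins, while cathepsin A has a further role outside proteolysis, since it protects the lysosomal enzymes neuraminidase 1 and β-galactosidase in a complex.

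The libraries held 18362378 to 24452153 counts, so that 3 counts, taken as the floor of detection, corresponded to 0.124 to 0.167 normalized CPM (CPM after TMM scaling in edgeR). The DMSO replicates stood apart from each other more than the others did. Between replicates, the log2 differences had an SD over genes of 0.377 in the DMSO group, against 0.163 in vehicle and 0.147 in the BI6727 group, and in the DMSO group the difference changed by 0.207 for each doubling of gene length, with longer genes relatively higher in replicate 1. Nothing in the sample labels says that the replicates were separate cultures, so the tests measure the spread between these libraries, which may be technical. Acta2, the smooth muscle actin that marks myofibroblasts, was 96.2±5.71 normalized CPM in vehicle, 475±2.15 in the DMSO group and 337±15.5 in the BI6727 group (mean±SD, n=2), and rose in the DMSO group by 2.30 on the log2 scale (edgeR quasi-likelihood test, adjusted p = 2.71e-05). All 8 fibroblast markers passed the filter. Their sum was 7136 to 7338 normalized CPM in vehicle, 6871 to 7869.5 in the DMSO group and 6161 to 6221 in the BI6727 group. Vim alone made up 4014 and 4182 of it in vehicle. Against vehicle, the median log2 difference of the 8 was -0.702 (DMSO, 3 positive and 5 negative) and -1.027 (BI6727, 2 positive and 6 negative). In the DMSO and BI6727 groups 1 and 3 of the 8 were called lower, where 2.53% and 2.96% of all tested genes were.

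Cathepsin W showed the largest difference from vehicle among the 10 genes. It is a cysteine protease best known from cytotoxic T cells and natural killer cells, and its gene lies at chr19:5465240-5468498 on the minus strand (mm10). Ctsw had 0 and 2 counts in the vehicle libraries. With TGF-β1 it had 517 and 570 counts in the DMSO group and 509 and 794 in the BI6727 group. All 4 treated libraries were therefore far above both vehicle libraries, which lay below the floor. In bulk RNA, more cells with the transcript and more transcript per cell cannot be told apart. In normalized CPM, Ctsw was 0 and 0.091 in vehicle, 25.0 and 27.4 in the DMSO group, and 28.3 and 32.9 in the BI6727 group. The ratio of the summed counts to vehicle was 540.2 in the DMSO group (95% interval 149 to 4467, counting error only) and 638 in the BI6727 group (176 to 5270.4). The fitted log2 fold change was 8.91 ± 0.39 (SE) in the DMSO group and 9.13 ± 0.39 in the BI6727 group. These fitted values rest on the 2 vehicle counts. Without vehicle replicate 1 they were 8.07 and 8.30, and without vehicle replicate 2, which leaves no vehicle count at all, they were 12.1 and 12.3.

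Cathepsin F is the closest relative of cathepsin W in the papain family, a lysosomal cysteine protease that can process the invariant chain of major histocompatibility class II and whose loss causes a neuronal storage disease. Its gene lies at chr19:4855129-4860912 on the plus strand, 604.3 kb from Ctsw. Ctsf had 2 and 6 counts in vehicle, 352 and 503 in the DMSO group, and 286 and 334 in the BI6727 group. In normalized CPM these were 0.104 and 0.273, then 17.0 and 24.2, then 15.9 and 13.8. Every treated library again lay above both vehicle libraries, and the BI6727 libraries lay below both DMSO libraries. The ratio of summed counts to vehicle was 106 in the DMSO group (53.7 to 247) and 75.8 in the BI6727 group (38.3 to 176). The fitted log2 fold change was 6.69 ± 0.37 (SE) and 6.22 ± 0.38, and it moved to 6.20 and 5.73 without vehicle replicate 1 and to 7.55 and 7.08 without vehicle replicate 2. No other gene among the 9518 tested had as few counts in vehicle as these 2, that is, 8 or fewer over both libraries. A gene this low in vehicle was tested only if every treated library reached 10 CPM, so genes that stayed lower after treatment were left out. Ctsf and Ctsw were also listed with their differences known, so nothing is read from their being the only 2.

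No exon of Ctsf or Ctsw overlapped another annotated gene, and none of their 50-base transcript windows occurred exactly in a transcript of another gene. The windows came from Gencode M21, where the positions of these 2 genes differ from those in the count table. Inexact matches were not searched. In both Ctsf and Ctsw the 3′ end faces the 3′ end of a gene on the opposite strand. Fibp, whose product binds fibroblast growth factor 1, ends 188 bases from Ctsw and had 1006 and 838 counts in vehicle, 1037 and 1214 in the DMSO group and 924 and 1278 in the BI6727 group. Actn3, the α-actinin of fast muscle, ends 310 bases from Ctsf and had 42 and 38, 67 and 65, and 61 and 130 counts in the same order. The counts of Fibp in the treated libraries overlapped those in vehicle. Actn3 stayed under the filter. In normalized CPM it was 2.18 and 1.73 in vehicle, 3.23 and 3.13 in the DMSO group, and 3.39 and 5.38 in the BI6727 group. Each treated library was thus above both vehicle libraries for Actn3. Whether reads were counted by strand is not given in the sources used here.

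**Figure D1:**
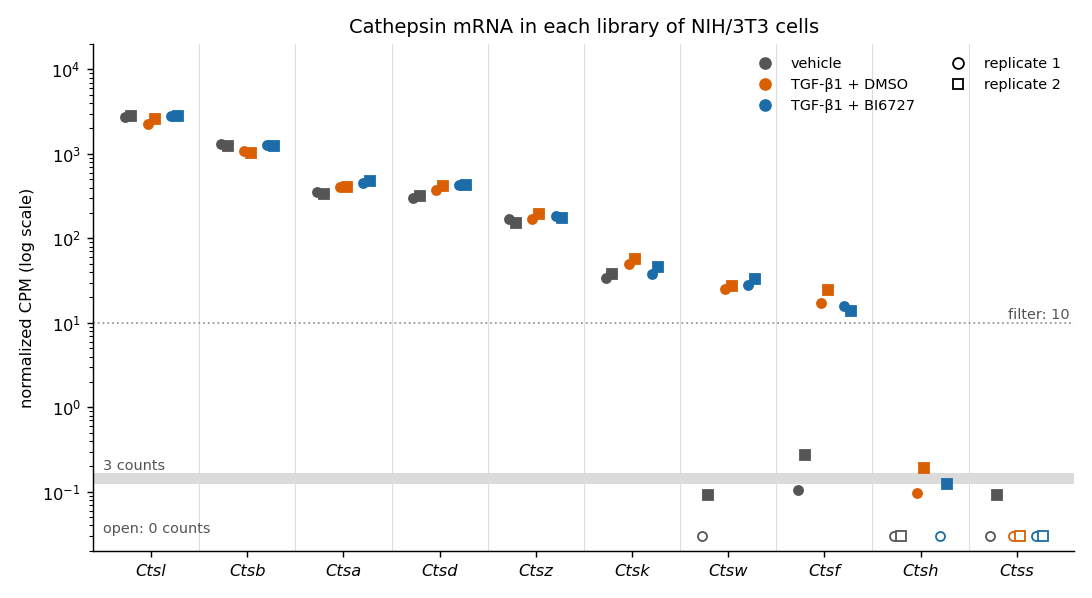
Normalized CPM of the 10 cathepsin genes (log axis) in each of the 6 libraries, with circles for replicate 1, squares for replicate 2 and colours for the 3 groups. The grey band is the level of 3 counts, the dotted line the filter of 10 CPM, and open symbols at the bottom are libraries with 0 counts. Ctsw and Ctsf are at or near the band in vehicle and between 13.8 and 32.9 in the treated libraries, while the 6 genes to their left differ far less between groups.

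The part of the Ctsf promoter that lies before the gene in the count table is shown because Ctsf is the one of these 2 genes with a promoter entry (RefSeq, GRCm38.p6). It spans chr19:4854915-4855128 on the plus strand, 214 bases in all, with an E-box (CACGTG) in capitals:
Ctsf promoter: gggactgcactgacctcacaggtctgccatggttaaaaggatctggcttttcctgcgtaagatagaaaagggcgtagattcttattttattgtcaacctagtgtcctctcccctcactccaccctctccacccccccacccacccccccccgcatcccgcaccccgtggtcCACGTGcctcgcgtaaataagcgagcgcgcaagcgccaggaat

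The E-box is the core of the CLEAR element, through which the transcription factors TFEB, TFE3 and MITF act on lysosomal genes. Over the 250 bases before the RefSeq start, 8 promoter windows of 7 cathepsin genes were searched (2 for Ctsa), and 4 of the 8 held CACGTG, against 6.02% of the 32851 windows in the table. The sites are shown with up to 8 bases on each side, 5′ to 3′ on the strand of the gene, with the E-box in capitals:
Ctsa (chr2:164833753-164833772): caaactgtCACGTGatgcag
Ctsd (chr7:142388059-142388077): tccccCACGTGacctgtat
Ctsd (chr7:142387912-142387933): ccgcgtctCACGTGacccgttg
Ctsf (chr19:4855078-4855099): ccgtggtcCACGTGcctcgcgt
Ctsl (chr13:64370743-64370764): ttagaagcCACGTGctgatcta

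These sites began 12 bases before the RefSeq start in Ctsa, 245 and 98 in Ctsd, 79 in Ctsf and 236 in Ctsl. The sites of Ctsa and Ctsl and the Ctsd site at 98 lay inside the gene as placed in the count table. Outside it lay the Ctsf site and the Ctsd site at 245. E-box sites occurred in a gene near 0 in vehicle (Ctsf) and in genes of high level in every library (Ctsa, Ctsd and Ctsl) alike. The windows of Ctsk, Ctss and Ctsz held none. The AP-1 motif TGANTCA and GGCGCC, a SMAD motif, were in none of the 8 windows, against 6.75% and 9.59% of all windows. Factors that act after TGF-β1 recognise these letters. Other letters that SMADs bind were not searched, so the windows may hold SMAD sites of another form. All 3 motifs read the same on both strands, and none overlaps another here.

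No other gene near Ctsf or Ctsw that passed the filter was called. Actn3, below the filter, is not among the tested genes of this paragraph. Of 14 other genes within 100 kb of Ctsf, 6 passed the filter, and of 20 within 100 kb of Ctsw, 11 did. None of these 17 was called against vehicle in either treated group at an adjusted p below 0.01 and a fold change above 2 (edgeR). Over all tested genes, 5.1% were called in the DMSO group and 5.31% in the BI6727 group. A count of 0 among 17 genes is near this background, so nothing is read from it. An unadjusted p below 0.05 was found for 2 of the 6 and 3 of the 11 in the DMSO group, where 37.8% of all tested genes had one, and for 3 and 0 in the BI6727 group (37.7%), while DESeq2 called 0 of them (background 5.48% and 5.67%). The log2 fold changes in the DMSO group ran from -0.175 to 0.290 near Ctsf and from -0.136 to 0.401 near Ctsw. Fibp was at 0.27 (adjusted p = 0.278) and Efemp2, which encodes an elastic fibre protein and starts 5.5 kb from the start of Ctsw, was at -0.04 (adjusted p = 0.825). Ccs, the copper chaperone for superoxide dismutase, starts 15.8 kb from the start of Ctsf and was at -0.17 (adjusted p = 0.418).

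**Figure D2:**
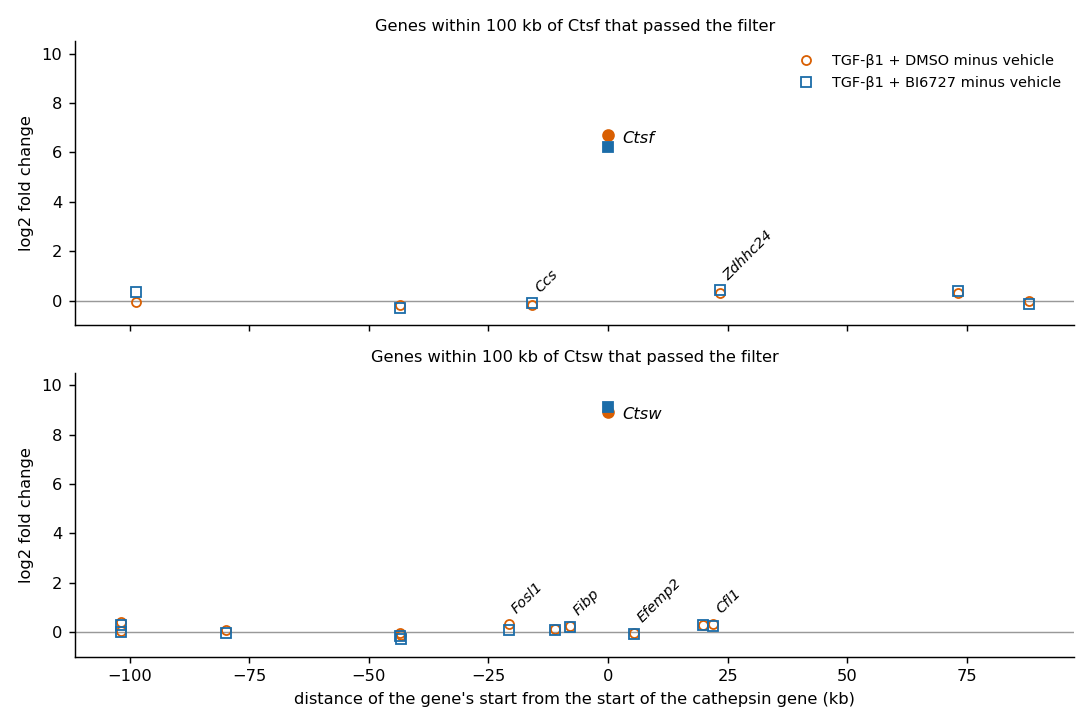
Log2 fold changes against vehicle of the genes within 100 kb of Ctsf (top) and Ctsw (bottom) that passed the filter, by the distance in kb between the start of each gene and that of the cathepsin gene. Orange circles are the DMSO group and blue squares the BI6727 group, with the cathepsin gene filled. The neighbours lie between -0.284 and 0.408, and the 2 cathepsins between 6.22 and 9.13.

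Markers of the cells in which cathepsin W is best known were nearly absent. Of 8 markers of cytotoxic lymphocytes, 6 had no count in any library (Cd3e, Cd8a, Nkg7, Prf1, Gzma and Gzmb), and none passed the filter. Their summed level was 0.935 to 1.0 normalized CPM in vehicle, 1.3 to 2.17 in the DMSO group and 1.56 to 1.74 in the BI6727 group, all of it from Il2rb and Klrd1. Of 8 macrophage markers, Adgre1 was at 0 in all libraries and Cd14 alone passed the filter, and their sum was 20.0 to 25.0 in all 6 libraries. Of 4 epithelial markers none passed, with a sum of at most 0.612.

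Among the 5 genes whose pattern over the 6 libraries was nearest to that of Ctsf, by the root mean square difference of log2 CPM after centring each gene, were Anxa8 (0.350), Col7a1 (0.808), Tnnt2 (0.876) and Itga2 (0.881). Anxa8 encodes an annexin, Col7a1 the collagen of anchoring fibrils, Tnnt2 cardiac troponin T and Itga2 a subunit of a collagen receptor. Among the 5 nearest to Ctsw were Ctsf itself (1.06), Anxa8 (1.27), Col7a1 (1.75) and Itga2 (1.80). Anxa8 had 10 and 29 counts in vehicle and 832 to 1104 in the treated libraries. Like Ctsf, it was higher in vehicle replicate 2 than in vehicle replicate 1. The distances of Ctsw, with 0 and 2 vehicle counts, were larger than those of Ctsf. This is a description over 6 libraries, and with a prior count of 5 in place of 1, Jag1 replaced Itga2 in both lists. Ctsf was then no longer the gene nearest to Ctsw, at 0.678 against 0.611 for Anxa8.

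The remaining 6 genes that passed the filter were abundant in all libraries. Compared per length, as RPKM (reads scaled to library size and exon length), the order of the mean over the 6 libraries was Ctsl (409.7), Ctsb (196), Ctsd (160), Ctsz (120.5), Ctsa (85.9), Ctsk (28.9), Ctsw (15.4), Ctsf (6.02), Ctsh (0.0153) and Ctss (0.0112). Among the 9518 tested genes, Ctsl was at place 181, Ctsb at 342, Ctsd at 428 and Ctsz at 576 in this order. Over all 6 libraries the ranges of Ctsb and Ctsd overlapped, as did those of Ctsd and Ctsz, of Ctsk and Ctsw, of Ctsw and Ctsf, and of Ctsh and Ctss. Those of Ctsl and Ctsb, of Ctsz and Ctsa, of Ctsa and Ctsk, and of Ctsf and Ctsh did not. Within groups the neighbours of Ctsw in this order differed. In vehicle it lay with Ctsf and the undetected members, in the DMSO group it was 21.3±1.42 RPKM against 35.3±3.18 for Ctsk, and in the BI6727 group its range overlapped that of Ctsk (24.8±2.61 against 27.9±3.99, n=2 each).

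Cathepsin L, an endopeptidase that cultured fibroblasts also secrete, lies at chr13:64359337-64370890. It was 2708 and 2787 normalized CPM in vehicle, 2285 and 2559 in the DMSO group, and 2788 and 2824 in the BI6727 group. The DMSO libraries were the lowest, by -0.18 ± 0.13 (log2, SE) against vehicle, and BI6727 against vehicle was 0.03 ± 0.13. Cathepsin B, an endopeptidase that also removes dipeptides from the carboxyl end, lies at chr14:63122462-63145923 and was likewise lowest in the DMSO libraries. Ctsb was 1306 and 1226 in vehicle, 1072 and 1021 in the DMSO group, and 1258 and 1241 in the BI6727 group, a log2 difference from vehicle of -0.27 ± 0.11 and -0.02 ± 0.11. The latter sign changed with the length trend of each library removed and without vehicle replicate 1.

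Cathepsin D, the main aspartic protease of the lysosome, lies at chr7:142375911-142388038. It was 304 and 315 normalized CPM in vehicle, 372 and 416 in the DMSO group, and 424 and 427 in the BI6727 group, so that all 4 treated libraries were above vehicle, by 0.35 ± 0.099 and 0.46 ± 0.099 on the log2 scale. Cathepsin A, which trims carboxyl ends and protects neuraminidase 1, lies at chr2:164832873-164841032. It was 357 and 332, then 406 and 405, then 454 and 474. Each treated library was again above vehicle, by 0.23 ± 0.094 (DMSO) and 0.43 ± 0.094 (BI6727). How often tested genes lay wholly on one side of vehicle is not given, so nothing is read from this for Ctsd and Ctsa. Cathepsin Z, a carboxypeptidase, lies at chr2:174427493-174439039 and was 168 and 154, 168 and 193, and 184 and 175. Its DMSO and vehicle libraries touched, at 0.17 ± 0.11.

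Cathepsin K, the collagenase of osteoclasts, which fibroblasts also make, lies at chr3:95499256-95509362. It was 34.0 and 37.4 normalized CPM in vehicle, 49.9 and 56.7 in the DMSO group, and 37.9 and 46.4 in the BI6727 group. The DMSO libraries were the highest and the BI6727 libraries lay between them and vehicle, with log2 differences from vehicle of 0.58 ± 0.14 and 0.24 ± 0.14. Of 6 osteoclast markers, Ocstamp was at 0 and Itgb3, a subunit of an integrin that other adherent cells also carry, alone passed the filter and was called higher in both treated groups. The summed level of the 6 was 4.78 to 6.65 in vehicle, 43.4 to 64.7 in the DMSO group and 35.7 to 39.2 in the BI6727 group, and its part in the Ctsk values was not tested.

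Ctss, the invariant-chain protease of antigen-presenting cells, lies 17.4 kb from Ctsk (chr3:95526786-95556403) and had 2 counts in vehicle replicate 2 and 0 in the other 5 libraries. Ctsh, mainly an aminopeptidase (chr9:90054152-90076089), had 0 counts in both vehicle libraries, 2 and 4 with DMSO, and 0 and 3 with BI6727. A difference between groups was not detectable for Ctss or Ctsh at this depth. Some counts of other members may be shared. Other genes overlapped 34.4% of the exon length of Ctsd (Gm49369), 26.8% of that of Ctsl (Gm47123 and Gm49230), 17.4% of that of Ctsa (Neurl2 and Pltp) and 12.8% of that of Ctsb (Fdft1), and how such reads were counted was not stated.

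Of the 8 cathepsins tested, 2 (Ctsf and Ctsw) were called higher and 0 lower in the DMSO group against vehicle, where 2.56% of all tested genes were called higher and 2.53% lower. The same counts held for the BI6727 group, where 2.34% were called higher and 2.96% lower. Nothing is read from these counts, because the list was drawn up with them known and the 2 genes had to differ to pass the filter. Both comparisons share the vehicle libraries.

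**Figure D3:**
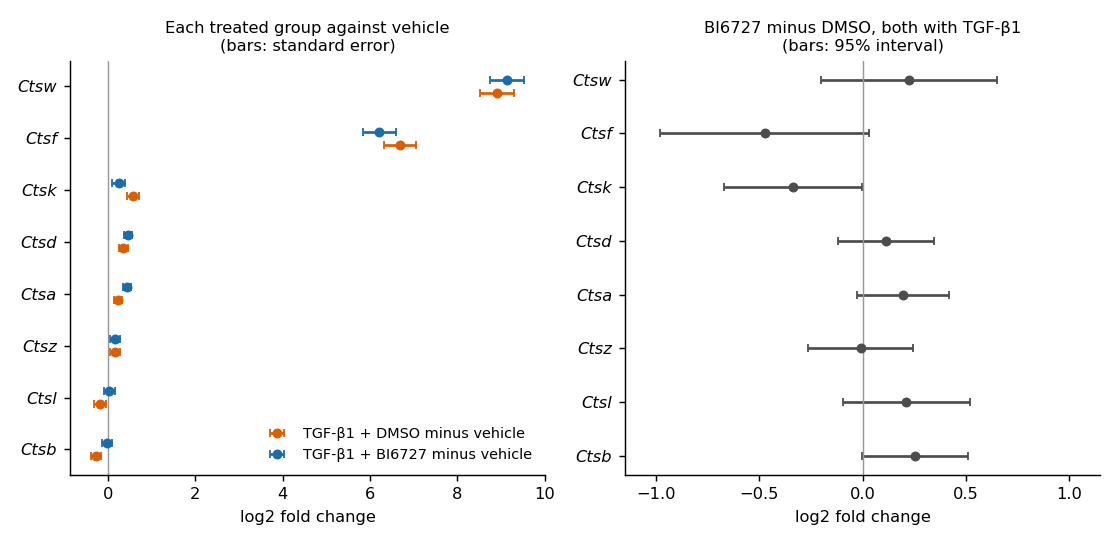
Log2 fold changes of the 8 cathepsins that passed the filter. On the left, the DMSO group (orange) and the BI6727 group (blue) are each set against vehicle, with bars of 1 standard error, and Ctsf and Ctsw lie above 6 while the other 6 lie between -0.274 and 0.579. On the right, BI6727 is set against DMSO with 95% intervals, all of which lie within 1 log2 unit of 0.

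BI6727 against DMSO, both with TGF-β1, asked whether the PLK1 inhibitor changed the cathepsins in stimulated cells. None of the 8 tested was called, and neither was any of the 9518 genes (0% called, edgeR quasi-likelihood test, adjusted p below 0.01 and fold change above 2). At an unadjusted p below 0.05 there were 636 genes (6.68%), of which 1 was a cathepsin, Ctsk, and DESeq2 called 11 genes (0.116%), none of them a cathepsin. This comparison shares the DMSO libraries with the one known when the list was made.

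Ctsf was lower with BI6727 by 0.47 on the log2 scale, from a mean of 20.6±5.11 to 14.9±1.47 normalized CPM (n=2), with a 95% interval of the log2 difference from -0.979 to 0.033 (edgeR, adjusted p = 0.745). The BI6727 and DMSO libraries did not overlap, but the DMSO replicates differed by more than the gap between the groups. Without DMSO replicate 1 the difference was -0.71 and its adjusted p was 0.00553, still under a fold of 2, and without DMSO replicate 2 it was -0.21 with an adjusted p of 0.543. Ctsw was higher with BI6727 by 0.22 (interval -0.203 to 0.652, adjusted p = 0.848), so the estimates for Ctsf and Ctsw lay on opposite sides of 0, with 0 inside both intervals, and the difference between them was not tested. Ctsk was lower by 0.34 (interval -0.671 to -0.005, adjusted p = 0.738).

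Among the abundant members, Ctsb was higher with BI6727 by 0.26 (interval -0.001 to 0.512, adjusted p = 0.745), Ctsl by 0.21 (-0.094 to 0.518, adjusted p = 0.781), Ctsa by 0.20 (-0.025 to 0.417, adjusted p = 0.747) and Ctsd by 0.11 (-0.119 to 0.343, adjusted p = 0.854). For Ctsz the difference was -0.01 (-0.262 to 0.243, adjusted p = 0.988). Without DMSO replicate 1, Ctsb alone among these 5 reached an adjusted p below 0.01 (0.00564), also under a fold of 2. For 7 of the 8 genes, all but Ctsz, the 2 BI6727 libraries lay wholly on one side of the 2 DMSO libraries, as they did for 34.1% of all tested genes. The median log2 difference of the 8 was 0.154, against -0.003 over all tested genes. In the main fit these intervals stopped short of a 2-fold change in either direction for each of the 8 genes, and a smaller change is not excluded. For Ctsf the margin was small, with a lower bound of -0.979 on the log2 scale. Its estimate moved to -0.706 without DMSO replicate 1 and to -0.21 without DMSO replicate 2. A 2-fold decrease of Ctsf is therefore not firmly excluded.

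Summed over the 10 genes, the cathepsin pool was 978 and 968 RPKM in vehicle, 952 and 1032 in the DMSO group, and 1098 and 1108 in the BI6727 group, or 0.440% to 0.523% of all scaled reads. The vehicle and DMSO totals overlapped, and the BI6727 totals were above both. The make-up of the pool also differed between groups. Ctsf and Ctsw together were 0.00538% and 0.0219% of the summed RPKM in vehicle, 3.03% and 3.35% in the DMSO group, and 2.83% and 3.04% in the BI6727 group. Cysteine cathepsins as a class were 79.0% and 78.9% in vehicle, 74.3% and 74.6% in the DMSO group, and 74.8% and 74.5% in the BI6727 group, so their share was lower in every treated library although it includes Ctsf and Ctsw. The aspartic protease Ctsd was 13.2% and 13.8% in vehicle and 16.4% to 17.1% in the treated libraries. Ctsa was 7.75% and 7.28% in vehicle and 8.32% to 9.08% in the treated libraries.

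**Figure D4:**
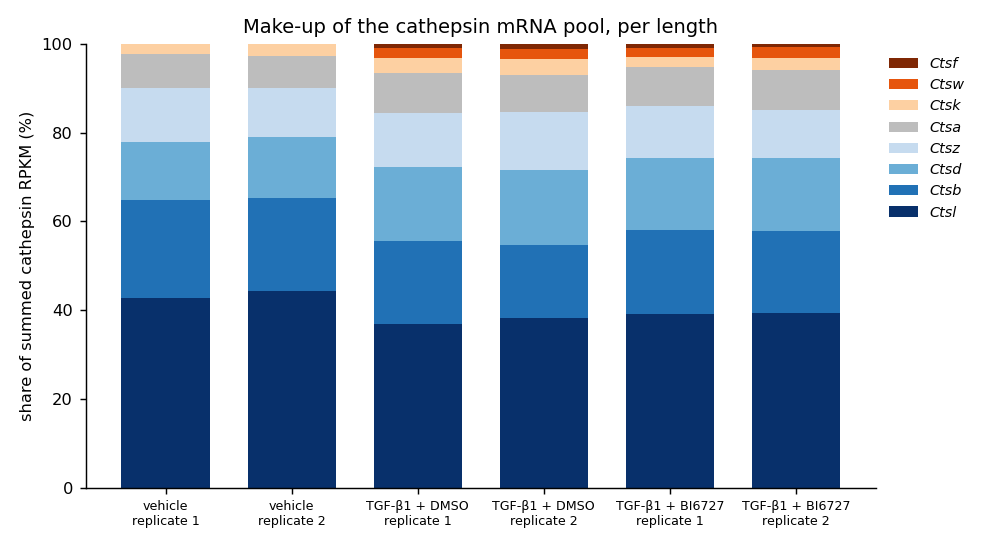
Share of each cathepsin in the summed RPKM of the family, in percent, for the 6 libraries (stacked bars, Ctsh and Ctss too small to draw). Ctsl and Ctsb fill most of each bar. The thin layers of Ctsw and Ctsf appear in the 4 treated libraries, where they add up to 2.83% to 3.35%.

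Of 13 further cathepsin genes in the annotation, among them Ctsc, Ctsg and the placental group, 11 had no count in any library and none passed the filter. Ctse was at 0.145 and 0.0963 normalized CPM in the DMSO group and at 0 elsewhere. Cathepsin O, a little-studied cysteine protease, was 16.5 and 11.8 normalized CPM in vehicle, 6.13 and 4.28 in the DMSO group, and 6.12 and 6.38 in the BI6727 group. Ctso thus lay lower in all 4 treated libraries than in either vehicle library, opposite to Ctsf and Ctsw. With the looser filterByExpr filter of edgeR, it fell by 1.43 on the log2 scale in the DMSO group (adjusted p = 0.00461), and its difference in the BI6727 group was -1.16 (adjusted p = 0.0108).

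Among inhibitors of the cysteine cathepsins, 1 gene was called in the treated groups. Of 16 on the list, 11 had counts and 3 passed the filter, of which 1 was called lower and 0 higher in each treated group against vehicle, where 2.53% and 2.96% of all tested genes were called lower in the DMSO and BI6727 groups. This was Serpina3g, an intracellular serpin that inhibits cathepsins L and B among others. It was 67.7 and 56.7 normalized CPM in vehicle, 11.6 and 12.0 in the DMSO group, and 9.23 and 10.1 in the BI6727 group. Serpina3g fell by 2.40 in the DMSO group (edgeR, adjusted p = 9.58e-05) and fell by 2.69 in the BI6727 group (adjusted p = 6.39e-05). Serpina3g belongs to a cluster of near-identical genes, so its reads may be split among copies.

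The cystatins are the main tight-binding inhibitors, cystatin C outside the cell and cystatin B in the cytosol. Cst3 was 535 and 484 normalized CPM in vehicle, 272 and 339.8 in the DMSO group, and 341 and 299 in the BI6727 group. All treated libraries were lower, by -0.74 in the DMSO group (adjusted p = 0.00953) and -0.67 in the BI6727 group (adjusted p = 0.0126), both under a fold of 2. Cstb was 282 and 287 in vehicle, 384 and 532 in the DMSO group, and 369 and 389.7 in the BI6727 group, by 0.69 (adjusted p = 0.0185) and 0.41 (adjusted p = 0.0895), and did not pass the threshold.

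Of 18 genes for activation, sorting and partners, 17 passed the filter, and Neu1 alone was called, higher in both treated groups against vehicle, with 0 called lower. Over all tested genes 5.1% and 5.31% were called in either direction, so this count of 1 is near the background. Neuraminidase 1 is the sialidase that cathepsin A protects. Neu1 was 52.6 and 51.3 normalized CPM in vehicle, 117 and 138 in the DMSO group, and 126 and 129 in the BI6727 group. It rose by 1.29 on the log2 scale in the DMSO group (edgeR, adjusted p = 0.000355) and by 1.30 in the BI6727 group (adjusted p = 0.000316), and did not pass the threshold without vehicle replicate 1 or 2 (adjusted p = 0.0153 and 0.0135 in the DMSO group, 0.0129 and 0.0121 in the BI6727 group). Its difference between BI6727 and DMSO was 0.004 (adjusted p = 0.996).

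Glb1, the β-galactosidase of the same complex, was 75.6 and 81.0 in vehicle, 96.4 and 85.7 in the DMSO group, and 93.3 and 95.5 in the BI6727 group, a difference from vehicle of 0.22 (adjusted p = 0.163) and 0.27 (adjusted p = 0.0969). Legumain, the asparaginyl endopeptidase that trims several cathepsins to their mature chains, was 146 and 129, then 119.7 and 117, then 124 and 125, or -0.21 (adjusted p = 0.154) and -0.14 (adjusted p = 0.327). The median over the 17 genes was 0.141 in the DMSO group, against -0.005 over all tested genes.

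**Figure D5:**
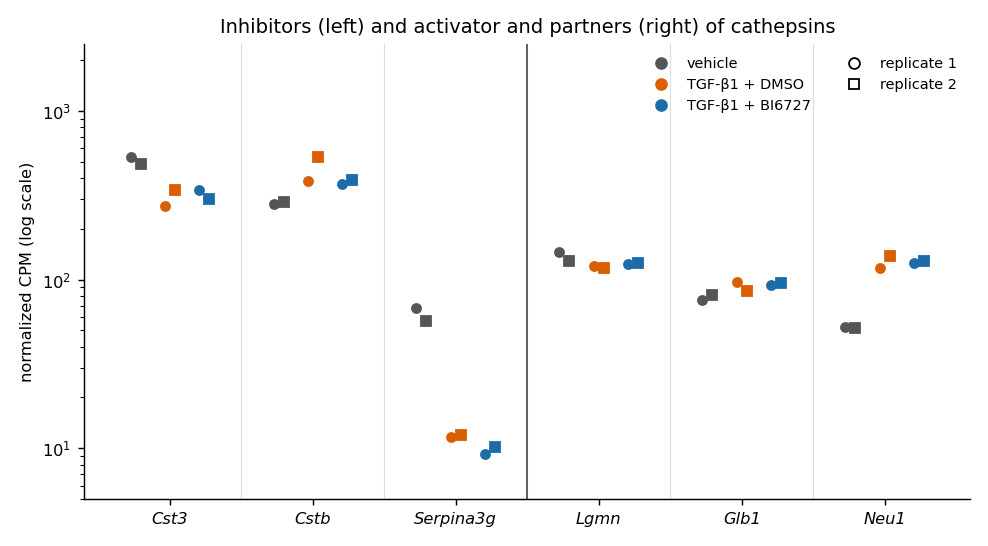
Normalized CPM (log axis) of 3 cathepsin inhibitors (Cst3, Cstb and Serpina3g) and of Lgmn, Glb1 and Neu1 in each library, with circles for replicate 1, squares for replicate 2 and colours for the 3 groups. Serpina3g lies at 56.7 and above in vehicle and at 12.0 and below in the treated libraries, Neu1 lies at 52.6 and below in vehicle and at 117 and above in the treated libraries.

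No other lysosomal hydrolase was called. Of 27 listed, 24 passed the filter and 0 were called in any of the 3 comparisons by edgeR or DESeq2. Against vehicle, edgeR called 5.1% (DMSO) and 5.31% (BI6727) of all tested genes and DESeq2 5.48% and 5.67%, and between BI6727 and DMSO they called 0% and 0.116%, so a count of 0 in a list of this size is near the background. An unadjusted p below 0.05 between the DMSO group and vehicle was found for 13 of the 24, 4 higher and 9 lower, against 37.8% of all tested genes. The median log2 difference was -0.039, with 12 genes positive and 12 negative. Gaa, the lysosomal α-glucosidase and one of the most abundant, was at 0.12 (adjusted p = 0.542). Of the MiT/TFE factors that bind the E-box of lysosomal genes, Tfe3 alone passed the filter, at 83.8 and 83.9 normalized CPM in vehicle, 79.1 and 63.7 in the DMSO group, and 73.8 and 66.7 in the BI6727 group (-0.23, adjusted p = 0.224 in the DMSO group). Tfeb was 11.8 and 9.78 in vehicle, 9.13 and 8.62 in the DMSO group, and 8.62 and 5.46 in the BI6727 group. Mitf, chosen after its values were seen, was 17.0 and 16.8 in vehicle and 2.55 to 3.73 in the treated libraries. A gene that reaches 10 CPM in the vehicle libraries alone, like Mitf, cannot pass a filter of more than 3 libraries.

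Between BI6727 and DMSO, 0 of the 45 companion genes that passed the filter were called by edgeR or DESeq2. Over all tested genes, edgeR called 0% and DESeq2 0.116%, so nothing is read from this count. An unadjusted p below 0.05 (edgeR) was found for 0 of the 45, against 6.68% of all tested genes.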

How the data were processed

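The authors removed rRNA, sequenced total RNA of 6 libraries, mapped reads to mm10 with Subjunc (Subread 1.6.4 in the submitters' processing notes) and counted them on Gencode M20 genes with featureCounts. They deposited whole-number counts without normalization, with gene positions and exonic lengths. The strand setting is not given in the sources used here. Symbols were matched for 54723 of 54752 identifiers. Groups and replicate numbers came from the sample labels.

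After the filter of the study (10 CPM in more than 3 libraries), 9518 genes were tested by the quasi-likelihood test of edgeR 4.0.16 under R 4.3.3 (TMM, one fit of 6 libraries without covariates, 3 residual degrees of freedom). Genes were called at a Benjamini-Hochberg adjusted p below 0.01 and a fold change above 2. The SE was the log2 fold change divided by the root of F. RPKM used exonic length. Log2 CPM had a prior count of 1. The test was checked on simulated counts. Exact permutation of 2 against 2 libraries cannot reach 0.05. Intervals of counts cover counting error only.

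The cathepsins and the lists were chosen with earlier results of these data known. Named genes were all 10 cathepsins, genes called in each list or otherwise its 2 most abundant, Lgmn, Neu1, Glb1, Cst3 and Cstb, called neighbours, the 5 genes nearest in pattern to Ctsf and to Ctsw, and Acta2. The neighbours Fibp, Actn3, Efemp2 and Ccs were chosen after their values were seen. Replicate numbers were not taken as pairs, since same-numbered deviations correlated at -0.11 (vehicle and DMSO), 0.047 (vehicle and BI6727) and -0.26 (DMSO and BI6727). DESeq2 1.42.0 was an alternative. Protein sequences were not analysed here. Some genes that the rule selects are not reported here.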

Additional observations from a re-analysis of the deposited data

How the results depend on the processing

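The counts of cathepsins called (2, 0 and 2 in the DMSO group against vehicle, BI6727 against DMSO and BI6727 against vehicle) were the same under DESeq2, DESeq2's size factors, looser filters, the 2 compared groups alone, removal of the length trends, other thresholds and each replicate left out (the lone library assumed to vary like the other groups). With the replicate number as a block, or crossed (added after the data were seen), they were again 2, 0 and 2. Ctsf was at 6.69 and Ctsw at 8.92 in the DMSO group with the replicate block. Nothing is read from the stability of the 2 calls against vehicle. The list was drawn up with them known, and these 2 genes had to differ to pass the main filter. No companion call changed with the block. Companion genes called in the DMSO group against vehicle, 2 in the main fit, were 5 (2 higher, 3 lower) with filterByExpr and with at least 10 counts in total, 4 without a fold minimum, and 1 to 3 with a replicate left out, 1 without either vehicle replicate and 3 without DMSO replicate 1. The counts of 5 came with the looser filters, under which 14604 and 17936 genes were tested. In the BI6727 group against vehicle they were 2, then 5 and 6 with these filters, and 1 to 2 with a replicate left out, the lower value without either vehicle replicate, when Neu1 was not called. In BI6727 against DMSO they were 0, and 0 to 1 with a replicate left out, the 1 being Lrp1 without DMSO replicate 1, chosen after its values were seen. It was 348 and 136 normalized CPM in the DMSO libraries. The shares of all tested genes called under these other settings are not given, so nothing is read from the companion counts under them. The Ctsz difference between BI6727 and DMSO changed sign with length trends removed (0.042), and ranged from -0.105 to 0.082 with a replicate left out, 0.031 without BI6727 replicate 2, and the cause was not tested. Of the 5 genes nearest to Ctsf, and to Ctsw, 4 and 4 were shared with a prior count of 5. The order of cathepsin levels was the same in TPM and with principal transcript lengths (added after the data were seen). With 2 vehicle counts of Ctsw and 8 of Ctsf, depth limits the size of their fold changes.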

Other observations

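Some companion genes were below the filter and were chosen after their values were seen. Mitf, an E-box factor of the MiT/TFE group, was 17.0 and 16.8 normalized CPM in vehicle, 2.99 and 2.55 in the DMSO group, and 2.84 and 3.73 in the BI6727 group. With edgeR's filterByExpr, Mitf fell by 2.60 on the log2 scale in the DMSO group (adjusted p = 0.00011) and fell by 2.33 in the BI6727 group (adjusted p = 0.000159), and did not differ detectably between BI6727 and DMSO (0.26, adjusted p = 0.848). Every treated library was far below both vehicle libraries. Manba, a lysosomal β-mannosidase, was 0.675 and 0.683 in vehicle, 2.56 and 3.18 in the DMSO group, and 2.61 and 2.44 in the BI6727 group. It rose by 2.08 (adjusted p = 0.0043) and 1.90 (adjusted p = 0.00647) with the same filter.

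Ctla2a, an inhibitor related to the propeptides of cysteine cathepsins, was 0.104 and 0.0455 normalized CPM in vehicle, at or below the floor of 3 counts, 0.241 and 1.20 in the DMSO group, and 1.78 and 1.86 in the BI6727 group. It can pass a filter on low counts only through the treated libraries, so no test against vehicle is given. Between BI6727 and DMSO its adjusted p was 0.704 (edgeR with filterByExpr). Lipa, the lysosomal acid lipase, was 87.8 and 82.0 in vehicle, 58.0 and 46.8 in the DMSO group, and 55.6 and 56.4 in the BI6727 group, lower by -0.70 (adjusted p = 0.00888) and -0.60 (adjusted p = 0.0141), under a fold of 2.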
